A study of Homo sapiens with 4 samples.

Results

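The proteasome is the barrel-shaped protease that degrades ubiquitin-tagged proteins, and its subunit genes were compared between QGP-1 cells given medium conditioned by pancreatic stellate cells (PSC medium) and QGP-1 cells given mock medium. Members were all genes on the array whose symbol in the platform's probe table starts with PSMA, PSMB, PSMC, PSMD, PSME or PSMF and a digit. The rule found 44 genes of 19090, carried by 61 of 25893 named probes. Of these genes, 41 are subunits, activators or the inhibitor of the proteasome, and 3 only share the start of the symbol. PSMC5, PSMD7 and PSMD13, the other 3 of the 44 subunit genes listed for the complex, were not analysed here. QGP-1, an established human cell line, derives from a neuroendocrine tumour of the pancreas, and both groups were kept for 24 h in RPMI-1640 with 0.1% serum after growth in 10% serum. PSC medium cells and mock cells were each measured on 2 one-colour arrays. Nothing in the labels tells if a group's arrays stand for separate cultures, and the p-values therefore cover the spread between the arrays alone, possibly a technical one. The labels name no donor or line of the stellate cells, and they do not say what the mock medium contained.

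The 26S proteasome has a 20S core of stacked rings and 19S caps. The outer alpha rings of the core form the gate, and the inner beta rings hold the active sites, which belong to PSMB5, PSMB6 and PSMB7. The ATPases of the 19S cap, PSMC1 to PSMC6, unfold the substrate, while some of its PSMD subunits bind or remove ubiquitin. Interferon-induced PSMB8, PSMB9 and PSMB10 can replace PSMB5, PSMB6 and PSMB7 to form the immunoproteasome, which favours peptides for MHC class I. PSME1 and PSME2 form the PA28 activator, a cap that replaces the 19S. The transcription factor NFE2L1 (NRF1) raises proteasome genes together when proteasome activity falls short.

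Promoter windows from RefSeq (GRCh38.p14, 250 bases before to 50 after the start) were searched for 4 motifs on both strands, and 36 of the 41 subunits had a window. A gene with several windows was counted when any of them held the motif. The interferon-type motif, the short core that interferon regulatory factors bind, was found in 6 of the 36 subunits (16.7%), against 4.38% of 27305 genes with a window. The antioxidant-type motif TGACNNNGC, which NFE2L1 and NFE2L2 are known to use, was found in 12 of the 36 (33.3%), against 16.1%. CCAAT was found in 17 of the 36 (47.2%), against 39.7%, and the ETS-type motif CCGGAAG in 12 (33.3%), against 12.2%. Not all of the 27305 genes were tested on the arrays. Of the 15159 tested genes with a window, 619 held the interferon-type motif and 2756 the antioxidant-type one. CCAAT was in 6388 of them and the ETS-type motif in 2512. The windows of 4 immune or PA28 genes are printed with the interferon-type match in capitals, since they make up 4 of the 6 subunits that hold it. Those of PSMD3 and PSMC4, the 19S genes of smallest p with the antioxidant-type motif, carry that motif in capitals. The 4 interferon-type matches have the same letters when read on 1 strand, and their first base lies 4, 21 and 28 bases before the start in PSMB8, PSMB10 and PSME2 and at base 6 after it in PSME1. Over the windows of all 36 subunits 1 pair of matches overlapped. A match describes letters only.
PSMB8 (chr6:32843998-32844297, minus strand): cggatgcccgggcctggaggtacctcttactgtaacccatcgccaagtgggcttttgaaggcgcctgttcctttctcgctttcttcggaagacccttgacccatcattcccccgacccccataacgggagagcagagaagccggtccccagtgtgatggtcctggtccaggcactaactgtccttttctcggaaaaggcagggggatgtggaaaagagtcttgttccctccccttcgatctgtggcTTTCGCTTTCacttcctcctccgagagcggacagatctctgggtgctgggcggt
PSMB10 (chr16:67936801-67937100, minus strand): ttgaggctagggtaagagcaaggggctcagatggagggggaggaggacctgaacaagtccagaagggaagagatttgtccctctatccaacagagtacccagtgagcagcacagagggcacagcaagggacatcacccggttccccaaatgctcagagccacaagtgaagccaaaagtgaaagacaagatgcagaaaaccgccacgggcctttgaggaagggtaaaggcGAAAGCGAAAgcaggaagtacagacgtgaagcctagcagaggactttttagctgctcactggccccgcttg
PSME1 (chr14:24135944-24136243, plus strand): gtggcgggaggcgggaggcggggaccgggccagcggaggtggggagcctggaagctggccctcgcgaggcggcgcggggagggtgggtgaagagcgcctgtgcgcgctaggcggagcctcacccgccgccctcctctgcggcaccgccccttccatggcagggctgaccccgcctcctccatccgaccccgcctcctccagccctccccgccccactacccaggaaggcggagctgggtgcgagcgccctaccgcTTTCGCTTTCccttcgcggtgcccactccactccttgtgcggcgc
PSME2 (chr14:24146561-24146860, minus strand): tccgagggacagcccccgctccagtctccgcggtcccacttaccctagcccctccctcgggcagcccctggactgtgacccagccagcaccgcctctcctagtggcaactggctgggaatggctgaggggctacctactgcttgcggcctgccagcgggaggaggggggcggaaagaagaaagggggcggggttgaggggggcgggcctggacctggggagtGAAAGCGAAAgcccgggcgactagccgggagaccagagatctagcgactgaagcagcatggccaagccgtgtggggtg
PSMD3 (chr17:39980557-39980856, plus strand): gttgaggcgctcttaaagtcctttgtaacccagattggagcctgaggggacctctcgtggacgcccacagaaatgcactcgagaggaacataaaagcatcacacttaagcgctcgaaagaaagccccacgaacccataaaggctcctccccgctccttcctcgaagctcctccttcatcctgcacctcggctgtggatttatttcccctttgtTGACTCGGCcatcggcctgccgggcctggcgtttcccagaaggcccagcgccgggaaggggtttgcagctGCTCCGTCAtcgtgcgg
PSMC4 (chr19:39970915-39971214, plus strand): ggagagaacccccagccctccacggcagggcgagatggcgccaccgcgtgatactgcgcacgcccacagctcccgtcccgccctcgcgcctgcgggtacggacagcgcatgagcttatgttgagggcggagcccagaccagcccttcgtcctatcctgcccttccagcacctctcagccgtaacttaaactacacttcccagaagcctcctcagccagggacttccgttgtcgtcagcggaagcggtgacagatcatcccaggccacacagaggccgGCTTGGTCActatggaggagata

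Median deposited intensity was 800 and 822 on the PSC medium arrays and 662 and 829 on the mock arrays. Before scaling, 848 and 175 probes lay below 1 on the PSC medium arrays, against 0 and 30 on the mock arrays. Of 6 measured neuroendocrine markers, SST, CHGA, CHGB and SCG2 were bright in both groups, with SST at 17.88 ± 0.14 in PSC medium and 18.32 ± 0.19 in mock (normalized log2 intensity, mean ± SD, n = 2 each, as for every mean below). INSM1 had 13.02 ± 0.16 in PSC medium and 13.04 ± 0.17 in mock. SYP lay under the median gene level of 10.13, at 9.44 ± 0.19 in PSC medium and 9.60 ± 0.21 in mock. Of 12 stellate cell markers, 11 lay under the median gene level of 10.13, COL1A1 being the exception. Their summed linear intensity was 5386 and 5878 on the PSC medium arrays and 5722.5 and 4643 on the mock arrays. After normalization none of them was at the floor, although COL3A1 had a deposited intensity of -4 on PSC medium array 1. Desmin (DES) alone of them passed the test, at 5.17 ± 0.09 in PSC medium and 6.66 ± 0.17 in mock (adjusted p = 0.0243). Its signal was near background, with deposited intensities of 17 and 38 in PSC medium and 91 and 114 in mock. Of 9 leukocyte markers, 7 lay under that level, LCP1 and CD14 being the exceptions, with sums of 12722.5 and 11379 in PSC medium and 9163 and 10163 in mock. PTPRC, the pan-leukocyte CD45 gene, had 6.27 ± 0.03 in PSC medium and 6.37 ± 0.04 in mock. The part of these markers in the results was not tested.

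The subunits of the 20S core, the 19S cap and the activators showed small differences, none of which passed the test. With limma at an adjusted p of 0.05 over all genes, 1 of the 44 members was called higher in PSC medium and 0 lower, beside 1.17% higher and 0.974% lower among all genes (2.14% in either direction). The called gene was PSMA8, a testis isoform with a signal at the floor, which is described below. At an unadjusted p under 0.05, 8 of the 41 subunits were higher and 1 was lower, against 9.84% higher and 12.7% lower among all genes. The median log2 fold change of the subunits, PSC medium minus mock, was 0.12, against -0.01 over all genes. With median centring both medians were lower, at -0.00387 for the subunits and -0.10 over all genes. The log2 fold change was above 0 in 24 of the 41, against 48.2% of all genes, and below 0 in 17, against 51.7%. For 35 of the 41 the 95% interval of the difference lay within 2-fold in either direction, with a half-width of 0.44 on the log2 scale at the median SE of the subunits. In these whole-culture extracts, fewer cells of a type and less RNA per cell cannot be told apart.

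**Figure D1:**
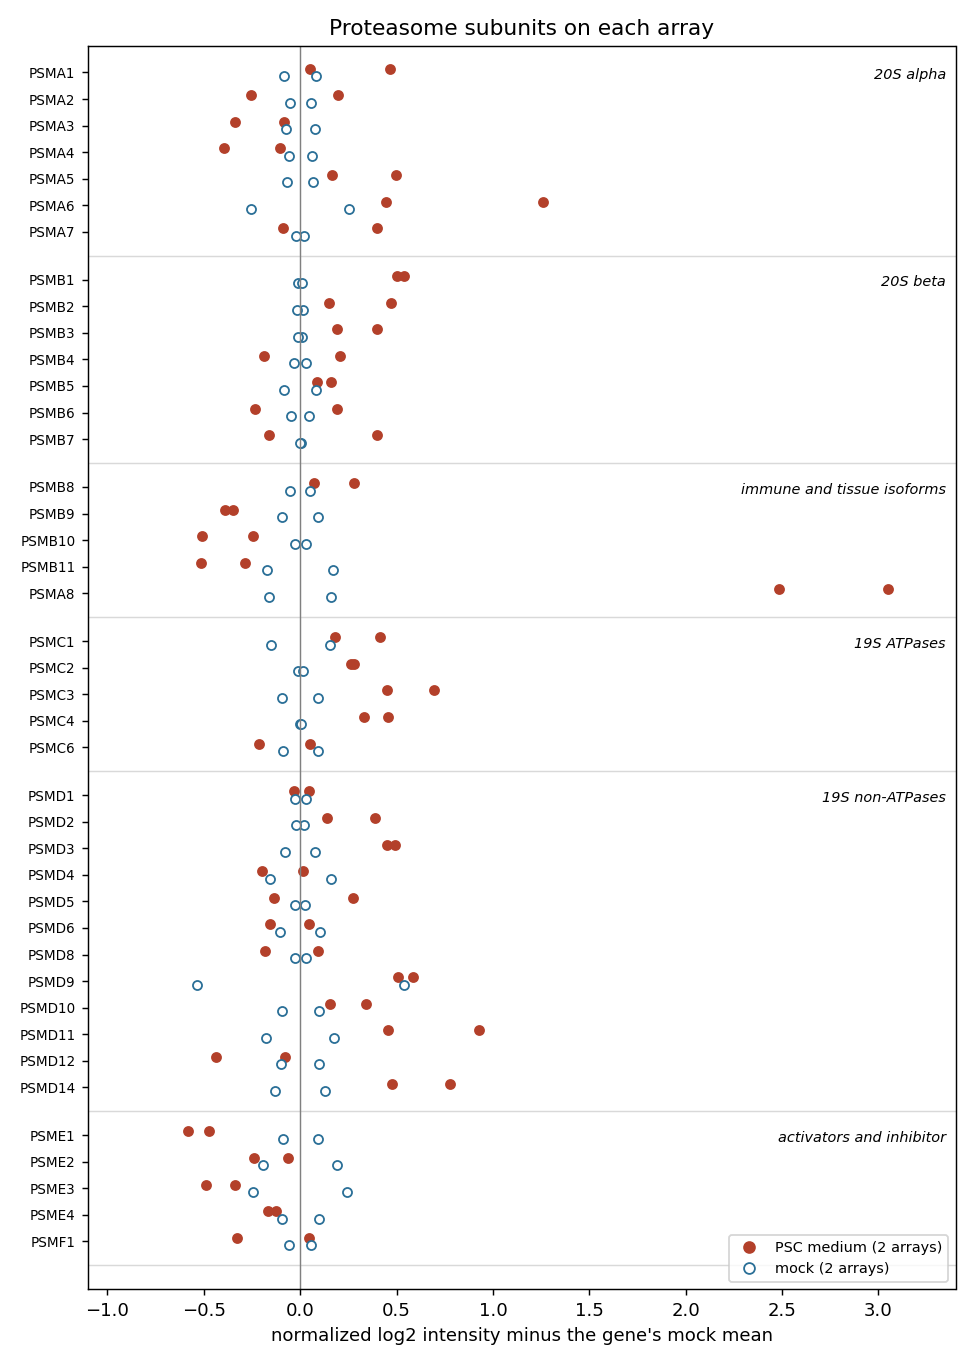
Normalized log2 intensity of each of the 41 subunits on each array, less the gene's mock mean (horizontal axis), with filled points for the 2 PSC medium arrays and open points for the 2 mock arrays, in 6 classes from top to bottom. The PSC medium points of PSMB1, PSMC3, PSMD11 and PSMD14 lie right of the mock points and those of PSMB9, PSMB10 and PSME1 left of them. PSMA8, far right, has a deposited signal close to 0.

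The log2 fold changes of the subunits other than PSMA8 ran from -0.53 to 0.85, and their median size was 0.26. The median distance between the 2 PSC medium arrays was 0.25 over the 41 subunits, and between the mock arrays 0.15. PSC medium array 1 read above array 2 for 28 of the 41 subunits, and mock array 1 above array 2 for 20 of the 41.

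In the alpha ring of the 20S core, 4 of 7 genes had a positive and 3 a negative log2 fold change, with a median of 0.15. PSMA6 had the largest, with 11.38 and 12.20 in PSC medium, against 10.68 and 11.19 in mock. Its groups did not overlap, but its arrays spread widely within each group (log2 fold change 0.85 ± 0.32 SE, adjusted p = 0.191). PSMA5 had 15.65 and 15.32 in PSC medium and 15.22 and 15.09 in mock (0.33 ± 0.18, adjusted p = 0.344). PSMA4 was the lowest of the ring, with 16.30 and 16.01 in PSC medium and 16.34 and 16.46 in mock (-0.25 ± 0.18, adjusted p = 0.454). PSMA3, also of the ring, had 15.94 and 15.69 in PSC medium and 16.10 and 15.95 in mock, also without overlap and on the low side (-0.21 ± 0.17). For PSMA1, PSMA2 and PSMA7 the groups overlapped, at 0.26 ± 0.20, -0.03 ± 0.20 and 0.15 ± 0.21. For each of these 3 genes PSC medium array 1 was the brightest of the 4 arrays and array 2 clearly dimmer. The alpha ring's median was -0.091 without PSC medium array 1 and 0.40 without PSC medium array 2, and it was -0.094 with the probes of each gene averaged.

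The beta ring had 6 positive and 1 negative log2 fold change among 7 genes, with a median of 0.12. PSMB1, a structural subunit without an active site, had the smallest p of the alpha and beta rings, with 16.33 and 16.37 in PSC medium, against 15.82 and 15.84 in mock. The gap between groups was many times the gap within them, a 1.44-fold difference that did not pass over all genes (0.52 ± 0.15, adjusted p = 0.124). A second, dimmer probe of PSMB1 read 0.27 ± 0.17, with mock arrays further apart at 14.71 and 14.44. With both probes averaged the value was 0.40. PSMB2 (0.31 ± 0.18) and PSMB3 (0.30 ± 0.16), also structural, did not overlap between groups either. PSMB4, the subunit on which beta ring assembly is completed, had 17.27 and 17.67 in PSC medium and 17.43 and 17.49 in mock, the mock values lying between the PSC medium ones.

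The 3 active-site subunits gave no difference that passed the test. PSMB5, which carries the chymotrypsin-like site and is the main target of bortezomib, had 16.12 and 16.19 in PSC medium and 16.12 and 15.95 in mock (0.12 ± 0.16, adjusted p = 0.7, 95% interval -0.27 to 0.51). PSMB6, the caspase-like subunit, had 16.84 and 16.42 in PSC medium and 16.70 and 16.61 in mock (-0.02 ± 0.20, interval -0.50 to 0.46). PSMB7, the trypsin-like subunit, had 16.31 and 15.75 in PSC medium and 15.91 on both mock arrays (0.12 ± 0.22, interval -0.43 to 0.66). The arrays of PSC medium spanned the mock values for PSMB6 and PSMB7 on the log2 scale, and the widest interval of the 3, that of PSMB7, leaves room for a difference of up to 0.66.

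The immune isoforms had mean levels over the 4 arrays of 7.65 (PSMB8), 8.84 (PSMB9) and 9.95 (PSMB10). PSMB10 thus lay just under the median gene level of 10.13 and the other isoforms further below it. Of the 3, 2 read lower in PSC medium without passing the test. PSMB9 had 8.68 and 8.64 in PSC medium and 9.12 and 8.93 in mock, a 1.29-fold lower signal (-0.37 ± 0.16, adjusted p = 0.247). PSMB10 had 9.90 and 9.63 in PSC medium and 10.12 and 10.17 in mock (-0.38 ± 0.17, adjusted p = 0.256). Neither gene's groups overlapped, as was so in the same direction for 29% of all genes. PSMB8 had 7.63 and 7.84 in PSC medium and 7.61 and 7.51 in mock, with the nearest arrays of the groups almost level (0.18 ± 0.17, adjusted p = 0.583). A dimmer probe of PSMB8 had the opposite sign at -0.18 ± 0.18, and with both probes averaged the value was -0.00293. Taken within each array, the log2 ratio of PSMB9 to PSMB6 was -8.17 and -7.78 in PSC medium and -7.58 and -7.67 in mock, a difference of -0.35 that was -0.155 without PSC medium array 1 and -0.537 without PSC medium array 2. That of PSMB10 to PSMB7 was -6.41 and -6.12 in PSC medium and -5.80 and -5.74 in mock, a difference of -0.50. Both isoforms were thus lower relative to their constitutive counterparts on each PSC medium array than on either mock array. The log2 ratio of PSMB8 to PSMB5 differed by 0.05, and by -0.126 with averaged probes. Only shifts of such a ratio between groups are read here, since its size compares signals of different probes. With 2 arrays against 2, the smallest two-sided exact permutation p is 0.333, so these ratios are given as values.

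Tissue isoforms were close to background. PSMB11, the thymic beta subunit, had deposited intensities of 36 and 74 in PSC medium and 90 and 76 in mock, and normalized values of 5.81 and 6.04 against 6.50 and 6.15 (-0.40 ± 0.19, adjusted p = 0.284). PSMA8, the alpha subunit of the testis proteasome, had deposited intensities of -13 and 3 in PSC medium and 19 and 8 in mock, so its deposited signal was lower in PSC medium. After quantile normalization the order turned round, to 3.21 and 2.64 in PSC medium against 0.00 and 0.32 in mock. On the PSC medium arrays 260 and 213 named probes lay below PSMA8, and on the mock arrays 98 and 124. Its fitted log2 fold change of 2.77 (adjusted p = 0.0131) rests on values at or next to the floor of 1. Without scaling it was -2.83 (adjusted p = 0.184), with median centring -2.96 (adjusted p = 0.163), and with a constant of 50 in place of the floor 0.18 (adjusted p = 0.529). The sign of the 1 call among the members thus depends on the scaling.

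**Figure D2:**
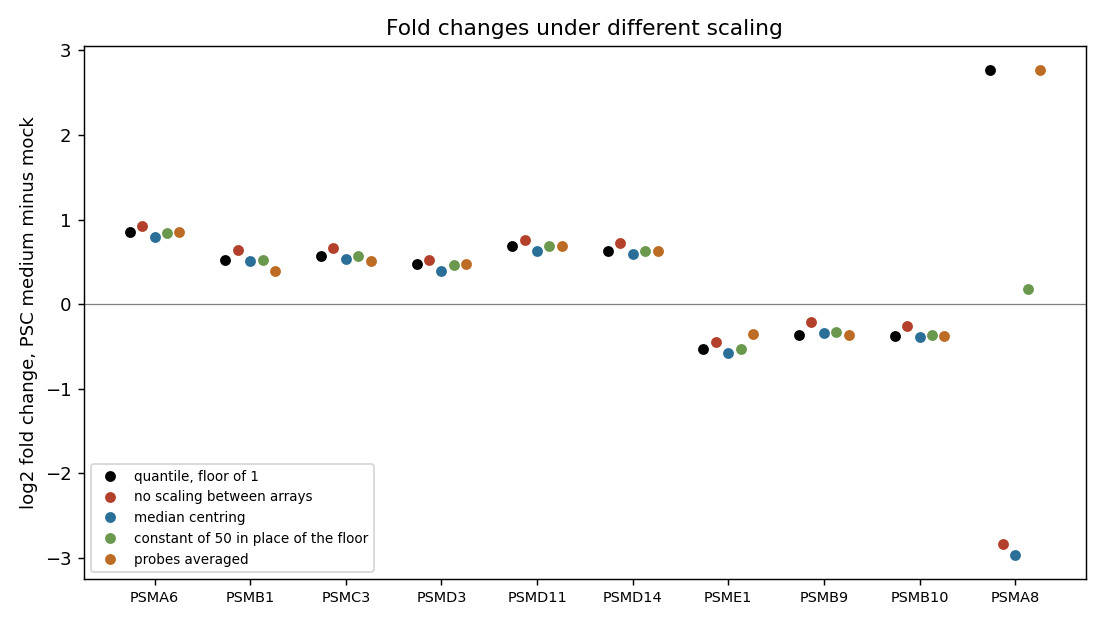
Log2 fold changes (vertical axis, PSC medium minus mock) of 10 subunits (horizontal axis) under 5 ways of scaling and summarising the intensities, 1 colour each. The subunits were picked among those of small p. The values of 9 of those drawn stay on their side of 0, while PSMA8 goes from 2.77 with quantile normalization to -2.83 without scaling. Subunits not drawn also change sign under at least 1 of these settings, among them PSMD9, PSMB6, PSMB8, PSMA2, PSMA5, PSMA7, PSMD4, PSMD6, PSMD8 and PSME4.

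Among the 19S genes, positive differences were more frequent than negative ones. Of 17 measured genes, the assembly chaperones PSMD5, PSMD9 and PSMD10 included, 12 had a positive and 5 a negative log2 fold change. Groups did not overlap and were higher in PSC medium for 9, against 24.5% of all genes, and lower for 0, against 29%. At an unadjusted p under 0.05, 5 were higher and 0 lower, against 9.84% and 12.7% of all genes, and 0 passed with limma after adjustment. Of the 5 ATPases, which drive unfolding, 4 were higher without overlap and their median was 0.30. PSMC3, one of the ATPases, had 14.58 and 14.82 in PSC medium, against 14.22 and 14.03 in mock (0.57 ± 0.18, adjusted p = 0.135). Both of its probes gave that direction, the dimmer one at 0.44 ± 0.16. PSMC4, the ATPase gene with an antioxidant-type motif printed above, had 13.36 and 13.48 in PSC medium and 13.02 and 13.03 in mock (0.39 ± 0.16, adjusted p = 0.21). PSMC1 (0.30 ± 0.19) and PSMC2 (0.27 ± 0.15) lay in the same direction, although 2 dimmer probes of PSMC2 read -0.06 ± 0.16 and -0.17 ± 0.22. PSMC6 was the lowest, with 14.78 and 14.51 in PSC medium and 14.64 and 14.82 in mock (-0.08 ± 0.18). The ATPase median stayed positive in every alternative run, between 0.25 and 0.40.

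Of 12 non-ATPase genes, 8 had a positive log2 fold change, among them the assembly chaperones PSMD5, PSMD9 and PSMD10, and 4 a negative one. The median of the 12 was 0.16. Median centring gave -0.0093, where the median over all genes was -0.10, and without mock array 1 it was 0.054. PSMD14, the deubiquitinase that cuts the ubiquitin chain from the substrate, had 15.42 and 15.72 in PSC medium, against 14.82 and 15.07 in mock. Every PSC medium array exceeded every mock array, and the difference was 1.54-fold (0.63 ± 0.19, adjusted p = 0.132). PSMD11, a lid subunit whose level is known to set proteasome assembly in human embryonic stem cells, had 14.02 and 13.55 in PSC medium and 12.92 and 13.27 in mock (0.69 ± 0.23, adjusted p = 0.153). PSMD3, another lid subunit, had 12.11 and 12.07 in PSC medium and 11.70 and 11.54 in mock (0.47 ± 0.16, adjusted p = 0.161). These 3 genes and PSMC3 were the most different 19S genes by p, each between 1.39-fold and 1.61-fold higher. The scaffold genes PSMD1 and PSMD2 had 0.01 ± 0.15 and 0.26 ± 0.17. PSMD12, a lid subunit, was the lowest at -0.26 ± 0.19, with overlapping groups. PSMD4, the ubiquitin receptor Rpn10, gave probes that disagreed, the brightest at -0.09 ± 0.19 and another at 0.56 ± 0.18. PSMD5 (0.07 ± 0.19), an assembly chaperone, and PSMD6 and PSMD8 (-0.05 ± 0.17 and -0.04 ± 0.17) had overlapping groups. PSMD10, the chaperone and oncoprotein gankyrin, had 14.34 and 14.53 in PSC medium and 14.09 and 14.28 in mock (0.25 ± 0.17). PSMD9, also a chaperone, had deposited intensities of 16 and 38 in PSC medium and 30 and 39 in mock, among the dimmest of the members. Its log2 fold change was 0.55 ± 0.35 after quantile normalization but -0.47 without scaling and -0.60 with median centring, so it has no settled direction. Without PSMD9, 7 of 11 non-ATPase genes were positive, with a median of 0.068, and 11 of 16 19S genes.

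**Figure D3:**
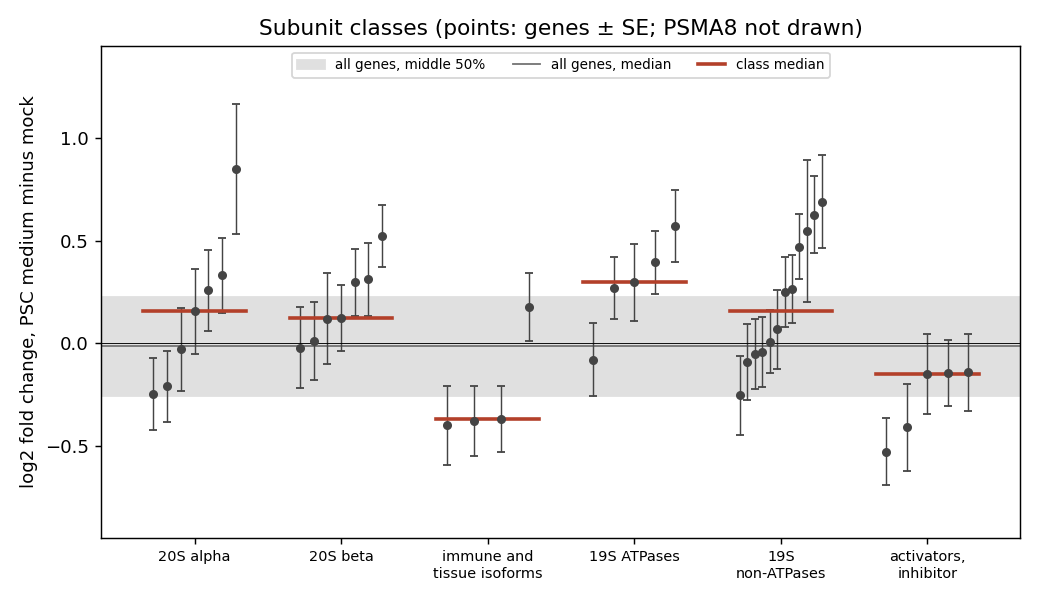
Log2 fold change of each subunit other than PSMA8 (points, ± SE from limma, 2 arrays per group) in 6 classes (horizontal axis), with the class median (bar, PSMA8 included in its class) and the middle 50% of all genes (grey band, -0.26 to 0.22). The band shows the spread of single genes, against which a class median is not to be read. Of the isoforms, PSMA8 and PSMB11 have signals near background. All 5 points of the activators and the inhibitor lie under 0.

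The activators and the inhibitor all had negative log2 fold changes, 5 of 5 with a median of -0.15, and 3 of 5 were lower without overlap, against 51.7% of all genes below 0 and 29% lower without overlap. The median was -0.33 without PSC medium array 1. None passed the test. PSME1, the alpha subunit of PA28, had 13.91 and 13.81 in PSC medium, against 14.30 and 14.48 in mock. The PSC medium arrays lay together below both mock arrays, a 1.44-fold lower signal (-0.53 ± 0.16, adjusted p = 0.137). A second, dimmer probe of PSME1 read -0.18 ± 0.16. PSME2, its partner in the ring, had 15.31 and 15.14 in PSC medium and 15.18 and 15.57 in mock, with overlap (-0.15 ± 0.19). PSME3, the nuclear PA28 gamma, had 9.11 and 8.96 in PSC medium and 9.69 and 9.20 in mock (-0.41 ± 0.21, adjusted p = 0.312). PSME4, the activator PA200, had -0.15 ± 0.16, while a probe of it near background read 0.44 ± 0.18. PSMF1, the inhibitor PI31, had 10.83 and 10.46 in PSC medium and 10.84 and 10.73 in mock (-0.14 ± 0.19), and its sign turned without PSC medium array 2 (0.043).

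PSMB8 and PSMB9 lie on either side of TAP1 in the MHC region, PSMB8 also next to TAP2, and differences in the genes of MHC class I presentation lay in both directions. Of 13 measured genes, 0 passed at an adjusted p of 0.05. At an unadjusted p under 0.05, 2 were higher and 2 lower, against 9.84% and 12.7% of all genes. TAPBP, the tapasin gene that loads peptides onto MHC class I, came nearest, with 14.67 and 14.63 in PSC medium, against 15.53 and 15.47 in mock (-0.85 ± 0.15, adjusted p = 0.0562). Calreticulin (CALR), a chaperone of the same loading complex, had 13.27 and 13.59 in PSC medium and 12.68 and 12.69 in mock (0.75 ± 0.18, adjusted p = 0.0877). HLA-C, a presenting molecule itself, had 15.64 and 15.40 in PSC medium and 15.04 and 15.03 in mock (0.48 ± 0.17, adjusted p = 0.166). Chosen like HLA-C after their values were seen, the peptide-trimming ERAP2 had -0.75 ± 0.22 (adjusted p = 0.123), the peptide transporter gene TAP1 -0.21 ± 0.16, and the interferon-induced regulators IRF1 and NLRC5 0.07 ± 0.21 and 0.09 ± 0.20. The 6 subunits with the interferon-type motif in a window were PSMA4, PSMB4, PSMB8, PSMB10, PSME1 and PSME2, and their median log2 fold change was -0.20, against 0.25 for the other 30. Over all tested genes with a window, the medians were -0.03 with that motif and -0.02 without it. Without scaling the 6 subunits had a median of -0.07, against 0.19 for the other 30, and with median centring -0.20, against 0.06.

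**Figure D4:**
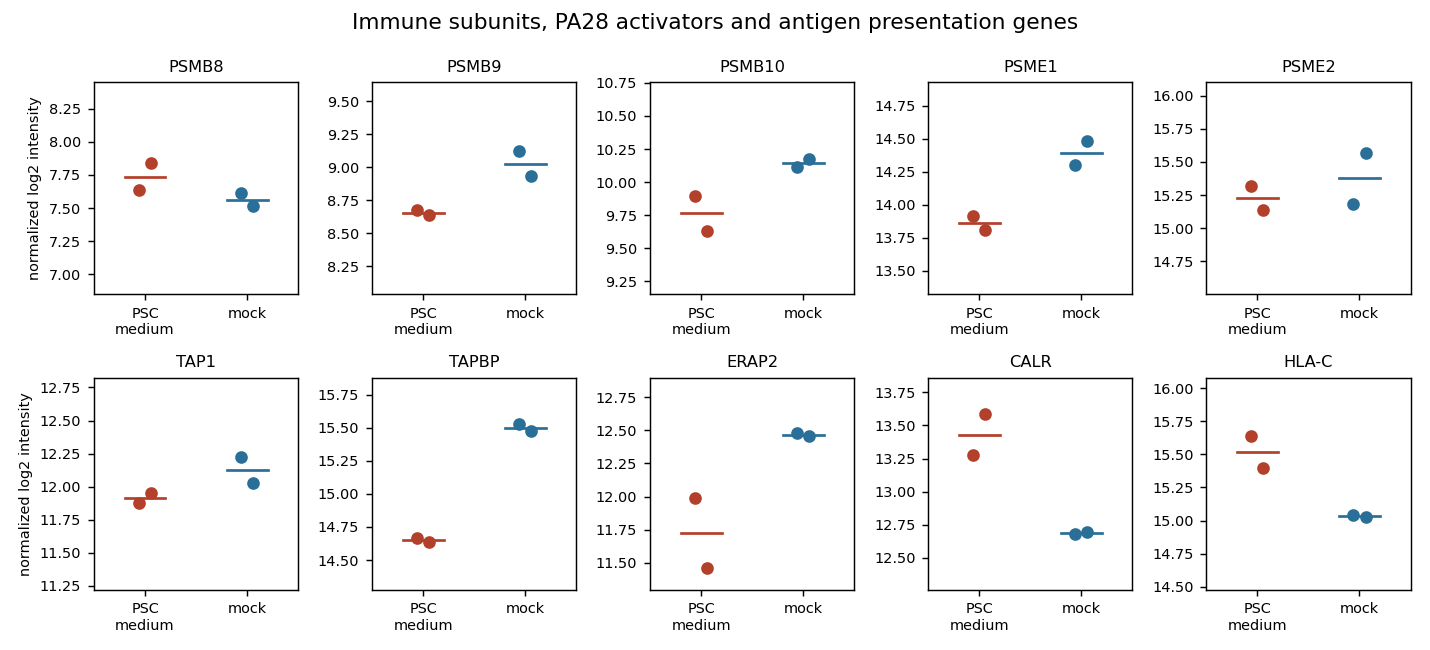
Normalized log2 intensity (vertical axis, 1.6 units high in each panel) of 3 immune subunits, the 2 PA28 genes and 5 of the 13 MHC class I presentation genes, chosen after their values were seen, on the PSC medium arrays (left) and the mock arrays (right), points being arrays and bars group means. PSMB9, PSMB10, PSME1, TAP1, TAPBP and ERAP2 have both PSC medium points below both mock points, PSMB8, CALR and HLA-C have them above, and PSME2 overlaps.

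Regulators of proteasome genes had mostly positive differences, and 0 of 9 passed. Among them 7 were higher in PSC medium without overlap and 1 lower, against 24.5% and 29% of all genes, and 4 were higher at an unadjusted p under 0.05, against 9.84% of all genes. The list is not limited to activators, so these counts do not describe activators alone. BACH1 (0.52 ± 0.20, adjusted p = 0.207) was among the 4, KEAP1 (-0.24 ± 0.16) was the 1 lower, and DDI2 had -0.05 ± 0.19, all named after their values were seen. NFE2L1 had 14.77 and 14.86 in PSC medium, against 14.31 and 14.21 in mock (0.56 ± 0.16, adjusted p = 0.117). NFE2L2, the NRF2 factor of the antioxidant response, had 15.08 and 15.35 in PSC medium and 14.66 and 14.77 in mock (0.50 ± 0.17, adjusted p = 0.167). The 12 subunits with the antioxidant-type motif had a median log2 fold change of -0.07, against 0.21 for the 24 without it, and over all tested genes these medians were both -0.02. PSMD3 and PSMC4 hold the motif and read higher, and PSME1, PSME2 and PSMB9 hold it too and read lower.

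Assembly chaperones and accessory factors had a median of 0.12 over 16 genes, with 12 positive (48.2% of all genes) and 0 past the test. At an unadjusted p under 0.05, 2 were higher, against 9.84% of all genes. POMP, the maturation factor of the 20S core, had 13.75 ± 0.35 in PSC medium and 13.79 ± 0.07 in mock (-0.04 ± 0.21). ZFAND2A, a stress-induced protein that binds the 19S cap, had 13.68 and 13.69 in PSC medium and 13.13 and 13.12 in mock (0.56 ± 0.15, adjusted p = 0.109), and the ubiquitin ligase gene UBE3C 0.63 ± 0.18 (adjusted p = 0.123). Of 10 shuttle and p97 genes 0 passed, and 3 were higher at that unadjusted p, against 9.84% of all genes. The shuttle UBQLN1 was at 0.57 ± 0.15 (adjusted p = 0.105), the p97 cofactor FAF1 at 0.65 ± 0.18 (adjusted p = 0.114) and their segregase VCP at 0.01 ± 0.21, the last chosen after its value was seen. Of 3 ubiquitin and E1 genes 0 passed with or without adjustment, with UBA6 at 0.16 ± 0.15 and UBA1 at -0.09 ± 0.17. In the COP9 signalosome, which is related in structure to the 19S lid, 6 of 10 genes had a positive log2 fold change and 0 passed. Without adjustment 2 were higher and 2 lower, against 9.84% and 12.7% of all genes. Its leading genes GPS1 (0.62 ± 0.15, adjusted p = 0.0947) and COPS3 (0.53 ± 0.16) lay above 0, and COPS5 (-0.44 ± 0.17) and COPS9 (-0.55 ± 0.17), named after their values were seen, below it.

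The 3 genes that share only the start of the symbol were PSMC3IP, PSME3IP1 and PSMA3-AS1. PSMC3IP, the recombination factor HOP2, had the smallest p of the members apart from PSMA8, with 14.49 and 14.75 in PSC medium, against 13.80 and 13.93 in mock (0.75 ± 0.17, adjusted p = 0.0822). PSME3IP1, which binds PSME3, had 12.33 and 12.77 in PSC medium and 11.75 and 12.12 in mock (0.62 ± 0.23, adjusted p = 0.183), a positive difference where PSME3 itself had a negative one. PSMA3-AS1, an antisense RNA of the PSMA3 locus, had overlapping groups (0.15 ± 0.19).

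Different probes of a subunit gave different answers about as often as like ones. Of 17 further probes, which belong to 15 subunits, 8 had the sign of the brightest probe and 9 the opposite sign, and 0 passed at an adjusted p of 0.05 over all named probes, against 0.687% of those probes. All probes of PSMC3, PSMB1, PSMB2, PSMB6, PSMB7, PSME1 and PSMF1 had the same sign. PSMA5 had the widest split, 0.33 ± 0.18 for the brightest probe and -0.64 ± 0.21 for a dim one, and for PSMA7 a bright second probe read -0.34 ± 0.16 against 0.15 ± 0.21.

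**Figure D5:**
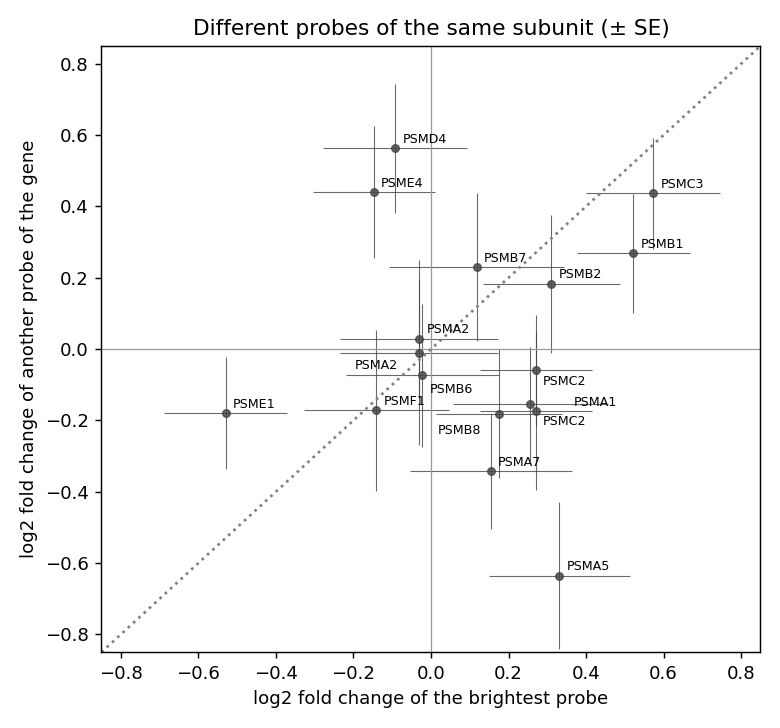
Log2 fold change of each further probe of a subunit (vertical axis) against that of the brightest probe of the same gene (horizontal axis), 17 points for 15 subunits with ± SE from limma and equality as a dotted line. PSMC3 and PSMB1 lie in the upper right, PSME1 in the lower left, and PSMA5, PSMD4, PSMA7 and PSME4 in the quadrants of opposite sign.

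The number of calls differed between settings. With genes under the median level left out, limma called 6 of the 37 members tested, against 18.8% of all genes tested, and with an intensity trend and a robust prior 8 of 44, against 17.8%. In both of these settings PSMA6, PSMC3, PSMD11, PSMD14, PSMC3IP and PSME3IP1 were called higher, and with the robust prior PSMB1 was called higher and PSME1 lower as well. Both shares of members lay near the share of all genes called. For the 6 genes called in both settings, the order by adjusted p was the order by size of the fold change. PSMA6, whose arrays spread widely within each group, came first (limma adjusted p = 0.000649 without dim genes and 0.00019 with the robust prior). In the fit of all genes its adjusted p was 0.191. PSMC3IP was the 1 member called with an intensity trend alone (6.76% of all genes called) and with a constant of 50 in place of the floor (9.92%). PSMA8 was the 1 member called with probes averaged (0.487%) and with the replicate number as a block (0.44%). With genes that touch the floor left out, 0 of 43 members were called, against 4.76% of all genes. With all genes fitted, an unadjusted p under 0.05 was found for 10 higher and 1 lower of the 44, against 9.84% and 12.7% of all genes. At an adjusted p of 0.1, PSMA8 and PSMC3IP were called, against 8.1% of all genes.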

How the data were processed

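Total RNA of 4 QGP-1 samples was amplified, labelled with Cy5 and hybridised to one-colour arrays, per the labels' protocols. The deposited file holds 1 linear intensity for each of 28264 probes and array, some of them below 0. The scanner, software and any scaling by the authors are not given in the sources used here. Quantile normalization of the intensities came first, then a floor of 1, then log2. The probe with the highest mean log2 value stood for its gene, for 19090 genes. All 25893 named probes matched a RefSeq gene by Entrez ID. The test was limma's moderated one (version 3.58.1 under R 4.3.3, two-sided, 2 residual and 3.97 prior degrees of freedom), with Benjamini-Hochberg adjustment over all genes; every adjusted p comes from this fit unless another is named. The fit alone was also run on simulated data, without quantile normalization or the floor. The planted changes were larger than those of any subunit but PSMA8, so that run cannot speak to the differences described here. Members, gene lists and promoter motifs were chosen with earlier results of these data known. Full statistics were given for members past the threshold, the 10 of smallest p, the extremes of each class, the active-site and isoform genes, and 2 genes of each list by p together with NFE2L1, NFE2L2 and POMP; other members were named with fewer values. Replicate numbers are shared between groups in the labels, but deviations of same-numbered arrays correlated at 0.0686 across genes, so arrays were not treated as paired. The number of arrays limits the precision.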

Additional observations from a re-analysis of the deposited data

How the results depend on the processing

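Counts of calls depended most on the processing. The fit called 409 genes, 223 higher and 186 lower in PSC medium, and 113 (35 higher, 78 lower) without scaling, 91 (29 higher, 62 lower) with median centring, 1893 (825 higher, 1068 lower) with a constant of 50, 1798 without dim genes, 93 with probes averaged, 1291 with an intensity trend, 3398 with trend and robust prior, 1546 at an adjusted p of 0.1, 902 without genes at the floor, an alternative chosen after seeing the data, and between 0 and 36 with 1 array left out. With the replicate number as a block it called 84 genes, but same-numbered arrays share only a number, and 2 pairs cannot settle more. Members called were 0 without scaling, 0 with median centring, 6 without dim genes, 8 with trend and robust prior, 2 at an adjusted p of 0.1, 0 without genes at the floor and 0 with any 1 array left out, and the adjusted p of PSMA8 then lay between 0.119 and 0.319. The subunit median was -0.00387 with median centring, where the median of all genes was -0.10, and 0.0129 with probes averaged. Class medians moved to -0.094 (alpha ring, probes averaged), 0.26 and 0.17 (beta ring, no scaling and probes averaged), -0.26 and -0.24 (isoforms, no scaling and constant of 50), 0.38 and 0.25 (ATPases, no scaling and median centring) and -0.0093 (other 19S genes, median centring). With 1 array left out they ran between -0.091 and 0.40 (alpha ring), 0.12 and 0.21 (beta ring), -0.35 and -0.23 (isoforms), 0.26 and 0.40 (ATPases), 0.054 and 0.21 (other 19S genes) and -0.33 and -0.17 (activators and inhibitor, -0.33 without PSC medium array 1). The log2 ratio of PSMB8 to PSMB5 differed by -0.126 with probes averaged. List members called, 0 in the fit, were with a constant of 50 2 assembly genes, 1 regulator, 2 shuttles, 3 presentation and 1 COP9 genes, without dim genes 2, 1, 3, 3 and 2 in that order, and with trend and robust prior 3, 3, 3, 4 and 3. Presentation genes called were 2 with a trend, 2 at an adjusted p of 0.1 (1 COP9 gene there) and 1 without genes at the floor. Among the members given full statistics, signs reversed for PSMA8 (-2.83 without scaling, -2.96 with median centring), PSMB6 (0.11 without scaling) and PSMB8 (-0.00293 with probes averaged). With 1 array left out signs also turned for PSMB6 (range -0.24 to 0.19), PSMB7 (-0.16 to 0.40, negative without PSC medium array 1), PSMC6 (-0.21 to 0.051) and PSMF1 (-0.33 to 0.043). For these fully described members, 150 of the 160 single-gene values kept their direction under the settings that can change it (scaling, floor, probe summary or arrays). The members of smallest p are among those counted, and for them a kept direction is more likely. Other members were not counted there. Of those, PSMD9 turned to -0.47 without scaling and -0.60 with median centring, and PSMA2, PSMD4, PSMD6 and PSMD8 turned positive without scaling. With probes averaged, PSMA5 and PSMA7 turned negative, and PSMD4 and PSME4 turned positive. Of all 41 subunits, 24 were positive in the fit, 27 without scaling, 20 with median centring and 23 with probes averaged. The cause of these shifts was not tested. Signals near the floor, PSMA8 above all, allow no order.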
